A study of Mus musculus with 35 samples.

Results

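Oxidative phosphorylation is carried out by 5 enzyme complexes of the inner mitochondrial membrane, and 107 of the 54532 genes counted in these lungs belong to it by name. Members were the protein-coding genes whose symbols begin with Ndufa, Ndufb, Ndufc, Ndufs or Ndufv, with Uqcr, with Cox4 to Cox8 or with Atp5, together with Sdha to Sdhd and the protein genes of the mitochondrial genome. They comprised 94 nuclear and 13 mitochondria-encoded genes. Of the nuclear genes, 83 encode subunits (36 of complex I, 4 of complex II, 8 of complex III, 18 of complex IV and 17 of complex V), 8 are the complex I assembly factors Ndufaf1 to Ndufaf8, and 3 (Cox7a2l, Ndufa4l2 and Atp5s) are related proteins that are not counted here as core subunits. The mitochondrial genome supplied 7 subunits of complex I, 1 of complex III, 3 of complex IV and 2 of complex V.

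RNA had been taken from whole lungs of adult mice of both sexes, at least 3 months old. Control mice were wild-type B6/129SJ2, Cav1-KO mice carried the global null allele tm1Mls (strain label Cav1(tm1Mls/)J), and Cav1-RC mice had the same gene missing everywhere except the endothelium, where caveolin-1 had been put back. Mice lived for 6 weeks in room air (normoxia, Nx) or in 10% oxygen (hypoxia, Hx), which gave 12 groups of sex, genotype and oxygen with 34 libraries, 10 groups of 3 mice and 2 groups of 2 (female Cav1-KO Nx and female Cav1-RC Nx). A further library, whose group the labels call uncertain and possibly female Cav1-KO Nx, entered no comparison.

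Complex I (NADH dehydrogenase), complex III (the cytochrome bc1 complex) and complex IV (cytochrome c oxidase) pass electrons to oxygen and pump protons, complex II (succinate dehydrogenase) feeds electrons in without pumping, and complex V (ATP synthase) spends the proton gradient to make ATP. The mitochondrial genome encodes a few hydrophobic core subunits, and every other subunit, including all of complex II, is a nuclear gene product that is imported. Several small complex IV subunits exist as a ubiquitous form and a form of heart and skeletal muscle (Cox6a2, Cox7a1, Cox8b) or of testis (Cox6b2, Cox7b2, Cox8c), while Cox4i2 and Ndufa4l2 are known from hypoxic cells and, in lung, from pericytes and smooth muscle.

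Depth ran from 12425535 to 33343006 counts per library. Cav1 itself stood at 979 to 1363 CPM (counts relative to the TMM-scaled library size) in Control libraries and at 1.48 to 6.53 CPM in all Cav1-KO and Cav1-RC libraries, so the endothelial caveolin-1 of Cav1-RC mice was not visible as Cav1 counts, and Cav1-RC below names libraries by that label. Xist and Y chromosome genes went against the sex label in 4 libraries, which were kept in their labelled groups. The animals of 12 libraries appear in the list of lungs used for the study's western blots, and those of the other 22 do not; the labels give 1 batch date to every library. All Cav1-KO Hx and all male Control Hx animals are on that list, as are replicate 1 of female Control Nx, of female Control Hx and of female Cav1-RC Nx, whereas no Cav1-KO Nx and no Cav1-RC Hx animal of the 34 is; the animal of the uncertain library is listed as a female Cav1-KO Nx one. Libraries on this western blot list stood apart in the measurements below, so the list is given beside the main results.

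Many members have near-identical copies elsewhere in the genome, and 3 of these copies bear on the results, so a short stretch of each pair is shown. The first pair is the start of mt-Nd3, a mitochondria-encoded complex I subunit (MT:9459-9806, plus strand), with its nuclear copy Gm28438 (chr1:24612775-24613119). The second is Ndufs5, a nuclear complex I subunit (chr4:123712710-123718202, minus strand), with the processed copy BC002163 (chr16:42955631-42955949), and the third is Cox7a2l, a factor for joining complexes III and IV (chr17:83501919-83514333, minus strand), with the processed copy Gm6969 (chr12:24638669-24639010). All coordinates are mm10, the sequences run 5′ to 3′ along the transcript, and the capital marks the base that differs.
mt-Nd3: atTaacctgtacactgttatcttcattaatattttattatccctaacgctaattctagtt
Gm28438: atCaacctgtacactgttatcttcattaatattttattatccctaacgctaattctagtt
Ndufs5: cgcagaacagccctaTaagaacgccgctcg
BC002163: cgcagaacagccctaCaagaacgccgctcg
Cox7a2l: ctactgcctgatcgcCctctacatggcctc
Gm6969: ctactgcctgatcgcTctctacatggcctc
Counted from 1 at the first base of the member's reference transcript, the marked differences are T3C for mt-Nd3, T173C for Ndufs5 and C358T for Cox7a2l. Over the 345 aligned bases mt-Nd3 and Gm28438 differ only by that base, Ndufs5 and BC002163 differ over 319 bases by it and A197G, and Cox7a2l and Gm6969 differ over 336 bases by it and 2 gaps. Other mitochondrial genes have identical copies in the same stretch of chromosome 1: Gm28661 matches mt-Co2 over 681 bases, Gm10925 matches mt-Atp6 over 678, Gm28437 matches mt-Co3 over 783 and Gm10222 matches mt-Nd4l over 294 without a difference.

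Levels were compared between genes as FPKM, the authors' counts scaled by depth and by gene length. The highest medians over the 34 libraries were those of mt-Co1 (catalytic core of complex IV) at 4881 FPKM, mt-Cytb (cytochrome b) at 3199 FPKM and mt-Nd1 at 2614 FPKM. Among nuclear subunits the ubiquitous complex IV forms were high, with Cox6a1 at 284 FPKM, Cox8a at 246 FPKM and Cox4i1 at 193 FPKM. In all, 88 members had a median of at least 10 FPKM, and 3 lay under 1 FPKM, namely the testis forms Cox7b2 (0.0788 FPKM) and Cox8c (0 FPKM) and a second annotated row of Atp5o that held no count in any library. Ndufb2 at 1.75 FPKM and Ndufab1, the mitochondrial acyl carrier protein, at 4.38 FPKM had the lowest levels of the other nuclear subunits, on annotated lengths of 5628 and 6883 bases.

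Mitochondria-encoded subunits did not share 1 scale of measurement. While mt-Co1 had a median of 142951 counts per library, mt-Co2 had 1194, mt-Atp6 772.5, mt-Co3 456.5, mt-Nd3 193.5 and mt-Nd4l 82.5, although these RNAs come from the same mitochondrial transcripts. The genes with low counts are those with a copy on chromosome 1 that matches over nearly their whole length, and mt-Atp8 (16.5 counts) is 204 bases long; the part of read assignment in these levels was not tested. Values of mt-Co1, mt-Cytb, mt-Nd1, mt-Nd2, mt-Nd4, mt-Nd5 and mt-Nd6 therefore rest on the most counts.

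Mitochondria-encoded subunits took a variable share of all counts. The share was 3.39, 2.23 and 1.73% in female Control Nx, 1.62, 2.56 and 2.49% in male Control Nx, 3.24, 1.68 and 1.22% in female Control Hx, and 5.02, 4.30 and 5.13% in male Control Hx. In Cav1-KO it was 1.53 and 1.55% (female Nx), 1.73, 1.76 and 2.09% (male Nx), 3.99, 3.70 and 4.48% (female Hx) and 3.52, 4.66 and 4.33% (male Hx). In Cav1-RC it was 4.23 and 1.83% (female Nx), 1.70, 1.76 and 1.85% (male Nx), 2.14, 1.66 and 1.85% (female Hx) and 2.35, 1.16 and 2.36% (male Hx). Thus all Cav1-KO Hx libraries lay above all Cav1-KO Nx libraries, while in Control and Cav1-RC the oxygen groups overlapped. The order of the libraries followed the western blot list: the 12 listed libraries spanned 3.24 to 5.13% (median 4.26) and the 22 others 1.16 to 2.56% (median 1.76), with no overlap.

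**Figure D1:**
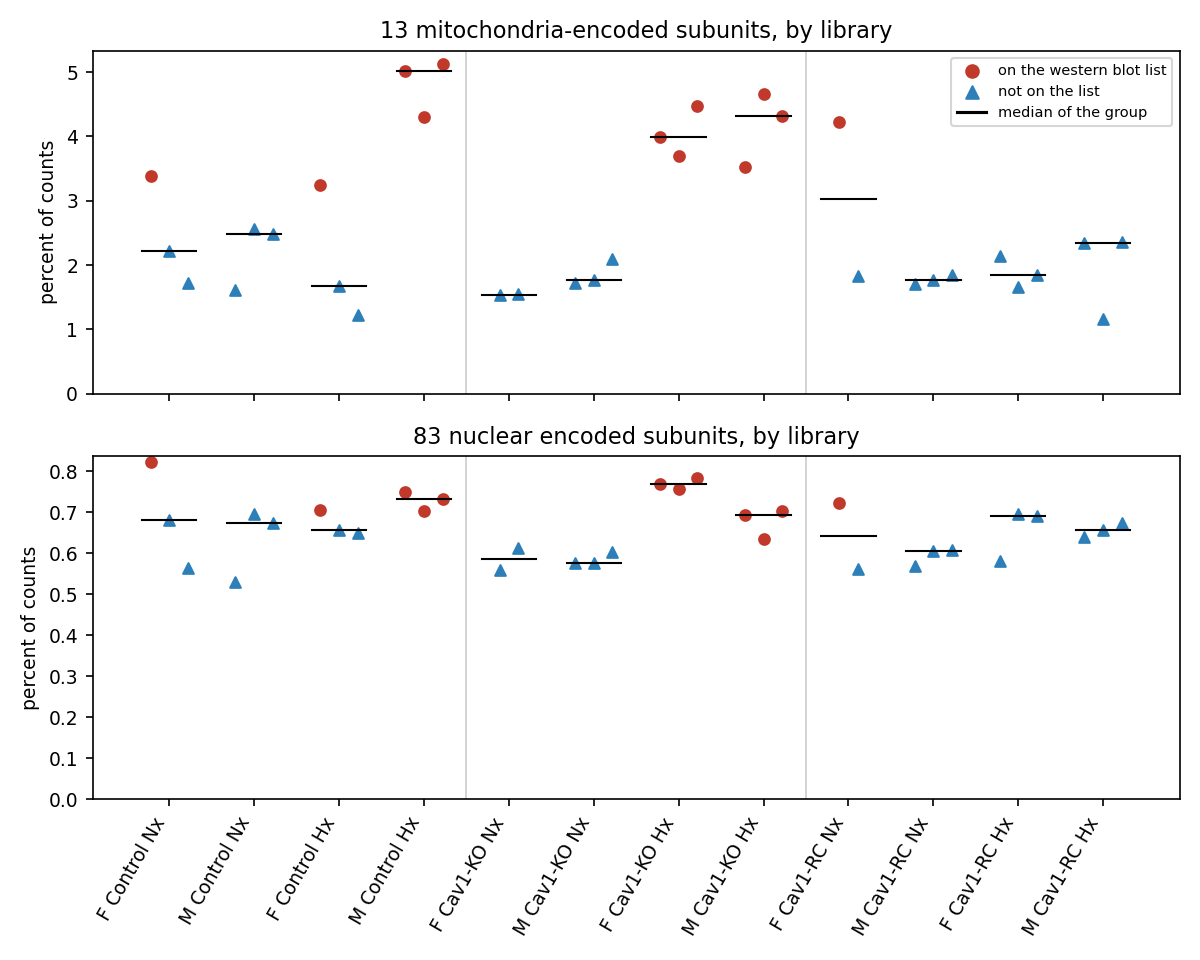
Percent of each library's counts (y axes) on the 13 mitochondria-encoded subunits (upper panel) and the 83 nuclear subunits (lower panel) for the 12 groups (x axis). Each point is a library, its colour and shape show whether the animal is on the western blot list, and the line is the group median; listed libraries hold 3.24 to 5.13% mitochondria-encoded counts and the others 1.16 to 2.56%.

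Nuclear subunits moved in the same direction, by less. They made up 0.636 to 0.821% of counts in listed libraries (median 0.728) and 0.531 to 0.696% in the others (median 0.610), so these ranges overlapped. The ratio of mitochondria-encoded to nuclear counts was 4.13 to 7.33 in listed libraries and 1.76 to 3.70 in the others. The 14 normoxic libraries outside the list had a median mitochondria-encoded share of 1.76% (1.53 to 2.56) and the 8 hypoxic ones also 1.76% (1.16 to 2.36). In each of the 3 groups with listed and unlisted mice, the listed mouse had the highest share.

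The difference between listed and other libraries within groups was fitted over all 34 libraries and rests on those 3 mixed groups. Of 104 members tested, 68 were higher and 7 lower in listed libraries (edgeR quasi-likelihood test, Benjamini-Hochberg adjusted p under 0.05), against 23.6% of all genes called higher and 22.2% called lower. The median log2 difference was 1.13 for mitochondria-encoded and 0.47 for nuclear subunits, beside 0.03 for all genes. Mitochondria-encoded subunits were higher in 10 of 13 cases: mt-Co1 by 0.89 ± 0.19 (SE, adjusted p = 4.2e-04), mt-Cytb by 1.13 ± 0.19 and mt-Nd6, the one subunit encoded on the other strand, by 1.06 ± 0.14. The 3 that missed the threshold were mt-Co3 (1.30 ± 0.61), mt-Nd3 (0.90 ± 0.43) and mt-Nd4l (0.29 ± 0.58), which are among those with few counts and a long copy.

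Called nuclear members went in both directions. Those with the smallest p on the higher side were Uqcrh, the hinge protein of complex III, by 0.88 ± 0.13 (adjusted p = 1.1e-05), Ndufa1 of complex I by 0.93 ± 0.15, Atp5j, coupling factor 6 of ATP synthase, by 0.61 ± 0.10, and Atp5s by 0.92 ± 0.15. Among the lower ones was Sdha, the flavoprotein of complex II, by 0.53 ± 0.09 on the log2 scale (edgeR, adjusted p = 3.5e-05). The others were the ATP synthase subunits Atp5b (-0.75 ± 0.15), Atp5a1 (-0.56 ± 0.12) and Atp5c1 (-0.39 ± 0.12), the core protein Uqcrc2 (-0.49 ± 0.12), Ndufa9 (-0.31 ± 0.11) and the muscle form Cox6a2. Listed libraries had 179 to 381 CPM of Atp5b (median 321.6) and the others 449 to 831 CPM (median 547), without overlap. For Uqcrh the order was the opposite, 140 to 216 CPM (median 179) against 69.8 to 111 CPM (median 92.4), again without overlap.

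By complex, nuclear subunits were called higher and lower in listed libraries as follows: 25 and 1 of 36 in complex I, 0 and 1 of 4 in complex II, 5 and 1 of 8 in complex III, 12 and 1 of 16 in complex IV, and 8 and 3 of 16 in complex V. The annotated gene length had a median of 1372 bases over the 50 nuclear subunits called higher, 2552 bases over the 7 called lower and 1756 bases over the 23 not called. Listed libraries also held fewer counts of cardiac muscle markers, with a summed level of 189 to 954 CPM (median 360) against 747 to 1875 CPM (median 1259.5), and 18 of 19 of these genes were lower (22.2% of all genes), led by Myh6 (-3.13 ± 0.36) and Casq2 (-3.13 ± 0.38). All 4 club cell markers and 5 of 6 ciliated cell markers were higher (23.6% of all genes) and 5 of 7 alveolar type 2 markers lower; the part of gene length and of tissue make-up in the members' values was not tested. In whole lung, fewer cells of a type and less RNA per cell cannot be told apart.

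**Figure D2:**
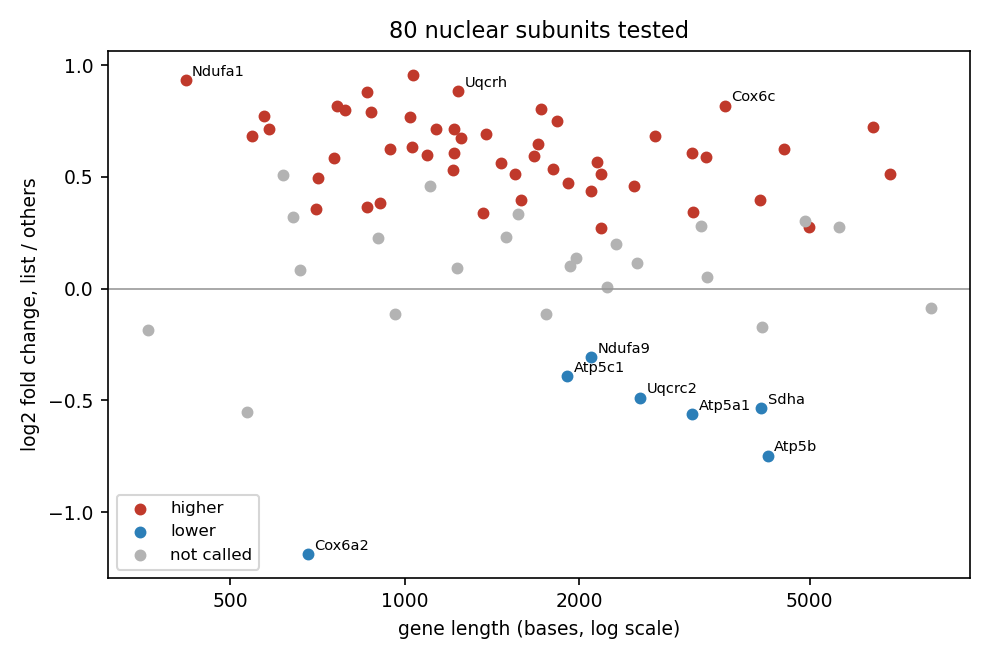
Log2 difference between listed and other libraries (y axis) against annotated gene length in bases (x axis, log scale) for the 80 nuclear subunits tested, coloured by call. The 50 subunits called higher have a median length of 1372 bases and the 7 called lower a median of 2552 bases.

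Which members responded to hypoxia was asked within each genotype, as the mean of the female and male log2 fold changes. In Control, 1 of 104 members was higher and 0 lower (0.77% and 0.668% of all genes), and 13 had an unadjusted p under 0.05. That member was Ndufa4l2, a homologue of the complex IV associated subunit Ndufa4 and a known hypoxia-responsive gene. It stood at 47.8, 28.4 and 29.4 CPM in female and 22.7, 27.3 and 34.9 CPM in male Control Nx, and at 53.0, 50.6 and 53.9 CPM in female and 65.3, 50.5 and 53.5 CPM in male Control Hx. Every hypoxic Control library was above every normoxic one, a log2 fold change of 0.77 ± 0.15 (adjusted p = 0.030, edgeR). No member was called when 1 of 6 libraries was left out: male Control Hx replicate 1, female Control Hx replicate 2, male Control Nx replicate 1 or 2, or female Control Nx replicate 2 or 3. The 2 hypoxic Control libraries outside the list, at 50.6 and 53.9 CPM, also lay above the highest normoxic one outside the list at 34.9 CPM, and the fold change was 0.61 (adjusted p = 0.0063) with a term for the list and 0.58 (adjusted p = 0.14) when females were compared within listed and within unlisted libraries, where Control has mice of both oxygen levels.

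No mitochondria-encoded subunit was called in Control, with a median log2 fold change of 0.50 beside 0.18 for nuclear subunits and 0.00 for all genes. Leaving out 1 library at a time gave 0.32 to 0.79 and 0.10 to 0.28. All 3 male Control Hx animals are on the list and no male Control Nx animal is, and the sexes gave different medians: 1.28 in males and -0.15 in females for mitochondria-encoded subunits, with 35 members called in males alone, where 16% of all genes were called, and 0 in females alone, where 0.0175% were. Compared in this way within listed and within unlisted females, the median was -0.30 for mitochondria-encoded and -0.04 for nuclear subunits.

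In Cav1-KO, 79 members were higher and 11 lower in hypoxia, where 31.5% of all genes were called higher and 30.2% lower. Mitochondria-encoded subunits were higher in all 13 cases with a median of 1.35, nuclear subunits had a median of 0.57, and all genes one of 0.02. All Cav1-KO Hx animals are on the list and no Cav1-KO Nx animal is, so hypoxia and the list cannot be told apart within this genotype. With a list term drawn from the other genotypes, no member was called and the medians were 0.35 and 0.06.

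Within that confounded contrast, mt-Co1 went from 5476 to 7824 CPM in 5 normoxic libraries (median 6245) to 12230 to 16136 CPM in 6 hypoxic ones (median 15057), a change of 1.24 ± 0.11 (adjusted p = 3.3e-06). The other mitochondria-encoded subunits with many counts changed by similar amounts, mt-Nd1 by 1.26 ± 0.10, mt-Nd2 by 1.29 ± 0.09, mt-Nd4 by 1.30 ± 0.09, mt-Nd5 by 1.37 ± 0.10, mt-Nd6 by 1.26 ± 0.09 and mt-Cytb by 1.35 ± 0.10. Those with few counts spread more widely, from 1.16 ± 0.42 for mt-Nd4l to 2.81 ± 0.39 for mt-Atp8, with mt-Co2 at 1.97 ± 0.39, mt-Co3 at 1.99 ± 0.50, mt-Atp6 at 2.21 ± 0.31 and mt-Nd3 at 2.26 ± 0.42.

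Among nuclear members in Cav1-KO, the ones with the smallest p were Uqcrq (complex III, 0.87 ± 0.06), Uqcrh (1.14 ± 0.09), Ndufa1 (1.10 ± 0.09) and Ndufs7 (an iron-sulfur subunit of complex I, 0.90 ± 0.07) on the higher side, and Atp5b (-0.92 ± 0.11), Ndufa9 (-0.47 ± 0.06), Atp5a1 (-0.51 ± 0.07) and Sdha (-0.39 ± 0.05) on the lower side (edgeR, adjusted p from 7.1e-07 for Uqcrq to 6.7e-05 for Sdha). Atp5b was at 507 to 556 CPM in Nx (median 519) and at 179 to 321.7 CPM in Hx (median 296), and Uqcrh at 82.6 to 92.5 CPM and 153 to 216 CPM, without overlap for either gene. Beside 31.5% of all genes higher and 30.2% lower, calls by complex were 29 higher and 2 lower of 36 in complex I, 1 and 2 of 4 in complex II, 5 and 2 of 8 in complex III, 13 and 0 of 16 in complex IV, and 11 and 5 of 16 in complex V.

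Succinate dehydrogenase, the complex without a mitochondria-encoded subunit, had 4 genes to test, and its calls are given as values. In Cav1-KO hypoxia Sdha (-0.39 ± 0.05) and Sdhb, the iron-sulfur subunit (-0.28 ± 0.07), were lower, the membrane anchor Sdhc was higher (0.53 ± 0.07), and the other anchor Sdhd did not pass the test (0.01 ± 0.07). Sdha stood at 160 to 183 CPM in Cav1-KO Hx and at 209 to 230 CPM in Cav1-KO Nx, and it was at 150 to 183 CPM in all 12 listed libraries against 209 to 307 CPM in the 22 others. Besides Sdha in listed libraries, succinate dehydrogenase genes were called in 1 other comparison, Cav1-RC against Cav1-KO in hypoxia, where Sdha and Sdhb were higher (0.53 ± 0.08 and 0.39 ± 0.09) and Sdhc lower (-0.39 ± 0.10).

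In Cav1-RC, 0 members were called in hypoxia by edgeR in either direction, where 1.33% of all genes were called higher and 0.835% lower, and 5 had an unadjusted p under 0.05. DESeq2 also called 0, and 2 were called with no filter on low counts. The medians were -0.31 for mitochondria-encoded and 0.00 for nuclear subunits. No Cav1-RC Hx animal is on the list, and among unlisted libraries the mitochondria-encoded median was 0.15.

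**Figure D3:**
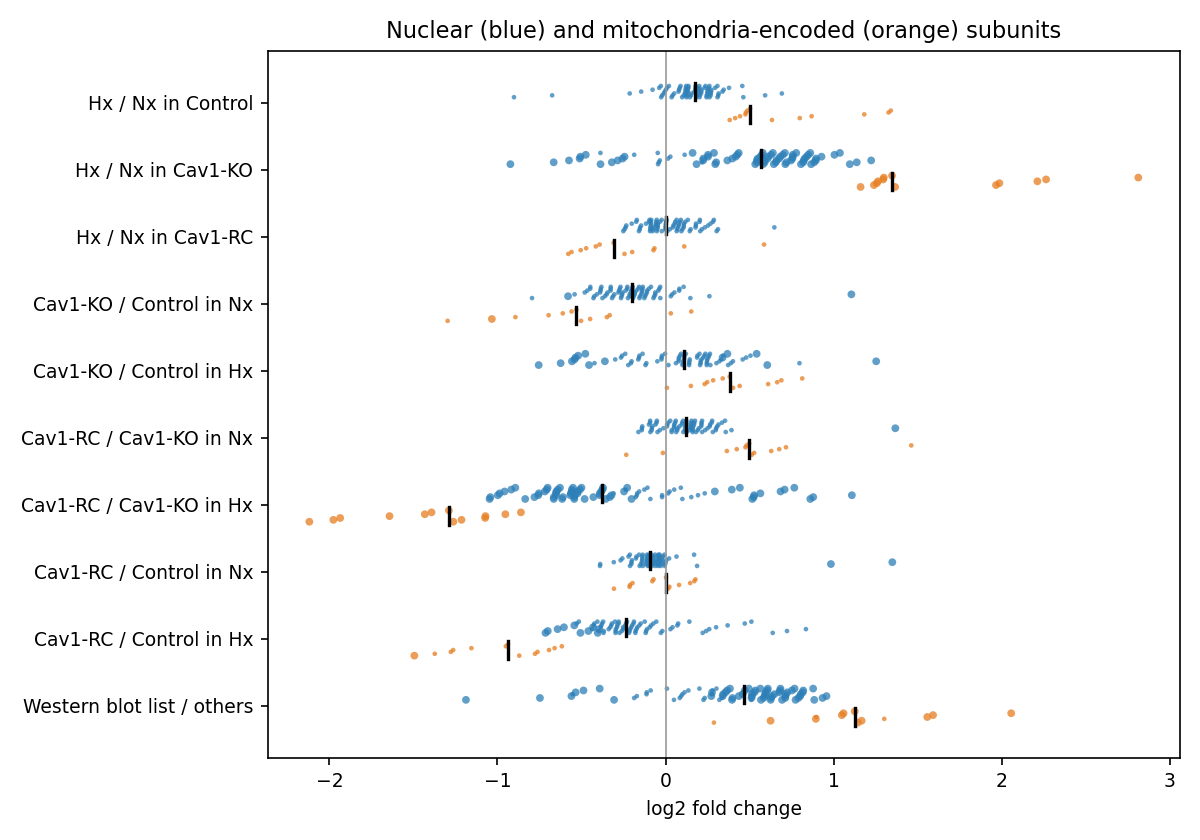
Log2 fold changes (x axis) of nuclear subunits (blue) and mitochondria-encoded subunits (orange) in the 9 comparisons and in listed against other libraries (y axis); each point is a gene, larger points are called, and the bar is the median. The orange median lies to the right of the blue median in Cav1-KO hypoxia (1.35 and 0.57). It lies to the left in Cav1-RC against Cav1-KO in hypoxia (-1.29 and -0.38). The ranges of orange and blue points overlap in each of these comparisons.

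Loss of caveolin-1 was read as Cav1-KO against Control, mice that are of different strains by their labels. In normoxia, 1 member was higher and 4 were lower, where 5.16% of all genes were called higher and 8.02% lower, and 19 had an unadjusted p under 0.05. The higher one was Ndufs5 (1.11 ± 0.21, adjusted p = 0.0060), and the lower ones were Cox7a2l (-0.42 ± 0.09), the complex I subunit Ndufb10 (-0.58 ± 0.17), the assembly factor Ndufaf7 (-0.47 ± 0.14) and mt-Nd3 (-1.03 ± 0.30, adjusted p = 0.048). Medians were -0.53 for mitochondria-encoded and -0.20 for nuclear subunits, or -0.65 to -0.27 and -0.26 to -0.077 without 1 library at a time. Control Nx holds 1 listed library and Cav1-KO Nx none. The number called went from 5 to 23 without female Control Nx replicate 3, to 11 without male Control Nx replicate 1 and to 1 to 3 when any of the remaining 9 was left out.

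In hypoxia, Cav1-KO had 5 members higher and 12 lower than Control, where 6% of all genes were called higher and 8.65% lower. Higher were Ndufs5 (1.25 ± 0.25), Uqcrh (0.54 ± 0.13), Ndufb3 (0.61 ± 0.15) and the acyl carrier protein Ndufab1 (0.34 ± 0.10), besides 1 other. Lower, with the smallest p, were Ndufc1 (-0.62 ± 0.10, adjusted p = 0.0039), Atp5d, the delta subunit in the stalk of ATP synthase (-0.54 ± 0.09), Ndufs8 (-0.56 ± 0.11) and Ndufa9 (-0.54 ± 0.12). Ndufc1 stood at 24.4 to 29.8 CPM in Control Hx (median 27.3) and at 14.3 to 20.1 CPM in Cav1-KO Hx (median 18.9), without overlap.

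All 6 Cav1-KO Hx and 4 of 6 Control Hx libraries are listed. Ndufc1 (-0.66, adjusted p = 0.017) and Atp5d (-0.40, adjusted p = 0.039) were also lower when males alone, all of them listed, and females within the list were used, and both were lower with a list term (-0.70 and -0.58). No mitochondria-encoded subunit was called in this comparison, and their median of 0.38 was 0.07 with a list term. That median was positive in females alone and negative in males alone, where all libraries are listed. Without female Control Hx replicate 1 the number of members called went from 17 to 61, and without female Control Hx replicate 3 or male Cav1-KO Hx replicate 1 it went to 5. It went to 24 without male Cav1-KO Hx replicate 2 and to 6 to 11 without any 1 of the other 8 libraries, and leaving out those that went against their sex label gave 3.

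Restoring endothelial caveolin-1 was read as Cav1-RC against Cav1-KO. The study obtained Cav1-RC mice from a different source than Cav1-KO and Control mice. The restored gene and the mouse stock therefore cannot be told apart where Cav1-RC is compared with another genotype. In normoxia, 3 members were higher and 0 lower, where 5.87% of all genes were called higher and 3.52% lower. They were Atp5e, the epsilon subunit of ATP synthase (1.37 ± 0.11, adjusted p = 6.0e-05), Cox7a2l (0.46 ± 0.07) and Ndufaf7 (0.49 ± 0.14). The mitochondria-encoded median was 0.50, and 0.13 among unlisted libraries. The number of members called rose without female Cav1-RC Nx replicate 2, which leaves the listed replicate 1 as the only female.

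In hypoxia the comparison of Cav1-RC with Cav1-KO sets 6 unlisted against 6 listed libraries. It gave 14 members higher and 67 lower, where 26.4% of all genes were called higher and 26.2% lower. All 13 mitochondria-encoded subunits were lower, from -0.86 ± 0.11 for mt-Nd6 to -2.12 ± 0.36 for mt-Nd3. Nuclear members with the smallest p were Atp5b (1.11 ± 0.15), Sdha (0.53 ± 0.08), Atp5c1 (0.77 ± 0.12) and Ndufa9 (0.56 ± 0.09) on the higher side and Uqcrh (-0.96 ± 0.09), Ndufa1 (-0.99 ± 0.11), Cox6c (-0.83 ± 0.10) and Ndufb3 (-1.04 ± 0.13) on the lower side. It shares its Cav1-KO libraries with the hypoxia comparison above, and genotype and list cannot be told apart in it. With a list term 2 members were called, both higher (Cox7a2l by 0.40 and Ndufc1 by 0.52), and the medians were -0.15 for mitochondria-encoded and 0.06 for nuclear subunits.

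Cav1-RC against Control gave 2 members higher and 0 lower in normoxia, where 1.76% of all genes were called higher and 1.57% lower. They were Ndufs5 (1.35 ± 0.23, adjusted p = 0.0091) and Atp5e (0.98 ± 0.19, adjusted p = 0.015). Each arm holds 1 listed library, and with a list term these genes gave 1.29 (adjusted p = 2.3e-05) and 0.99 (adjusted p = 0.015). Neither was called in females alone or without the 4 libraries against their sex label. In hypoxia 0 were higher and 13 lower, where 4.87% of all genes were called higher and 4.19% lower. In this comparison 2 to 5 members were called without male Control Hx replicate 1 or 3, any male Cav1-RC Hx library or female Cav1-RC Hx replicate 1, and 23 without female Control Hx replicate 3. Those with the smallest p were Ndufb10 (-0.54 ± 0.10), Ndufa11 (-0.40 ± 0.08), Uqcrq (-0.51 ± 0.12) and Ndufa4l2 (-0.48 ± 0.12), and mt-Nd3 was the only mitochondria-encoded subunit called (-1.49 ± 0.36). Control Hx holds 4 listed libraries and Cav1-RC Hx none. With a list term in the edgeR fit only Ndufs5 was called (1.11, adjusted p = 0.0041), and the mitochondria-encoded median went from -0.94 to -0.06. Among unlisted females, the only set of 1 sex and 1 listing with both genotypes, that median was positive. In females alone no member was called. More were called in males alone, where every Control Hx and no Cav1-RC Hx animal is listed.

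Sex made no called difference to any of the 9 comparisons. Of 936 tests of the female minus the male fold change over the members, edgeR called 0 (0% of all genes in these tests), 118 had an unadjusted p under 0.05, and DESeq2 called 3. This count of 0 did not hold when 1 library was left out. Without female Control Hx replicate 1 there were 23 calls for Control hypoxia, 48 for Cav1-KO against Control and 35 for Cav1-RC against Control in hypoxia. Calls also appeared for Cav1-RC against Cav1-KO in normoxia and for Cav1-RC hypoxia without female Cav1-RC Nx replicate 2, which leaves 1 female in that group. Each of these fits left a group of mixed listing with libraries of 1 kind. The share of all genes called in them is not reported here.

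Isoform pairs of complex IV showed whether the ubiquitous and the tissue form moved together. For subunit 4, the ubiquitous Cox4i1 was the more abundant at 193 FPKM against 65.5 FPKM for Cox4i2. Cox4i2 stood at 84.7, 41.6 and 41.9 CPM in female and 32.4, 42.2 and 53.2 CPM in male Control Nx, and at 81.3, 54.8 and 56.2 CPM in female and 94.2, 89.5 and 74.6 CPM in male Control Hx. The highest normoxic value was that of the listed library, and the change of 0.59 ± 0.20 missed the threshold (adjusted p = 0.20). It was higher in Cav1-KO Hx than Nx (0.72 ± 0.14, adjusted p = 9.5e-04), with 50.5 to 107 CPM against 46.4 to 52.3 CPM, and in listed libraries (0.80 ± 0.18, 50.5 to 107 against 32.4 to 56.5 CPM). Cox4i1 changed in the same contrasts by 0.55 ± 0.07 and 0.51 ± 0.13. Cox4i2 gave -0.24 ± 0.17 in Cav1-RC hypoxia, and in hypoxia it was lower in Cav1-RC than in Control (-0.64 ± 0.16, adjusted p = 0.031) and than in Cav1-KO (-0.76 ± 0.17).

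Ndufa4l2 showed a like set of values across genotypes, with 26.4 to 36.7 CPM in Cav1-KO Nx, 39.8 to 60.8 CPM in Cav1-KO Hx, 30.1 to 41.6 CPM in Cav1-RC Nx and 29.99 to 47.05 CPM in Cav1-RC Hx. Its change was 0.74 ± 0.12 in Cav1-KO and 0.14 ± 0.14 in Cav1-RC, where it did not pass the test. Ndufa4l2 was also called higher in listed libraries (0.40). All Cav1-KO Hx animals are listed, and no Cav1-KO Nx or Cav1-RC Hx animal is. The related Ndufa4 gave 0.21 ± 0.18 in Control (not called) and 0.66 ± 0.09 in Cav1-KO. Among 7 pericyte markers, Higd1b and Cspg4 were called higher in Control hypoxia (0.77% of all genes) and the other 5 were not; their part in the values of Ndufa4l2 was not tested.

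**Figure D4:**
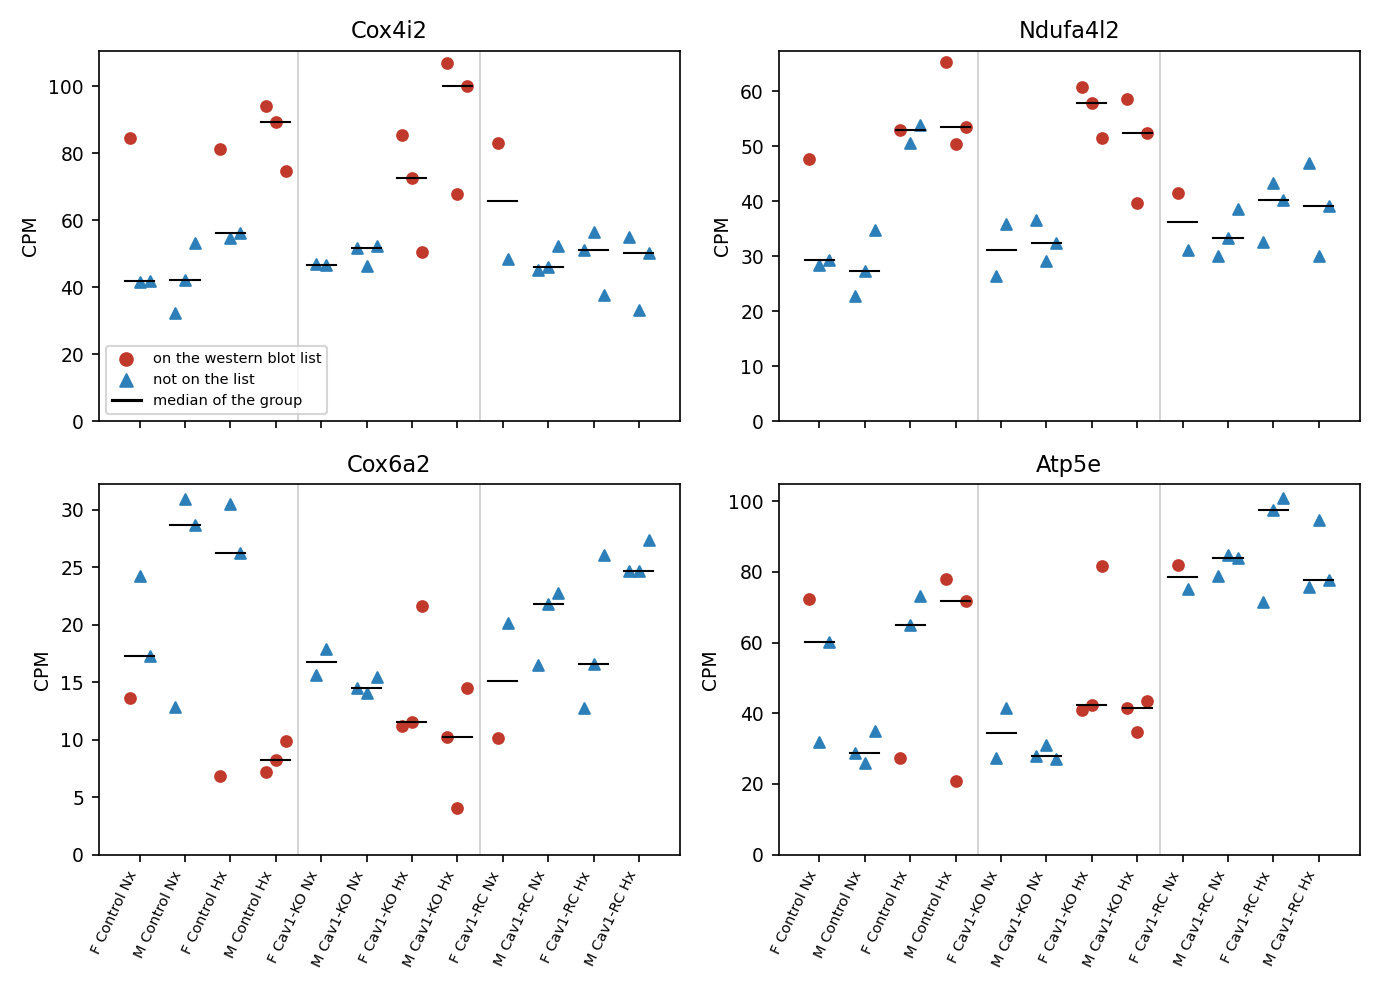
CPM (y axes) of Cox4i2, Ndufa4l2, Cox6a2 and Atp5e in each library of the 12 groups (x axes), with points coloured by the western blot list and lines at group medians. Ndufa4l2 lies at 22.7 to 47.8 CPM in Control Nx and 50.5 to 65.3 CPM in Control Hx, and Atp5e falls in 2 bands, 20.7 to 43.3 and 60.1 to 101 CPM.

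The striated muscle isoforms were present at low levels, Cox6a2 at 23.2 FPKM, Cox8b at 14.2 FPKM and Cox7a1 at 8.07 FPKM, beside 284 FPKM for Cox6a1, 246 FPKM for Cox8a and 66.2 FPKM for Cox7a2, their ubiquitous partners. Cox6a2 stood at 4.01 to 21.6 CPM in listed libraries (median 10.2) and 12.7 to 30.9 CPM in the others (median 20.95), and was lower in listed libraries (-1.19 ± 0.34, adjusted p = 0.0055) while Cox6a1 was higher (0.36 ± 0.13). It was also higher in Cav1-RC than in Cav1-KO in hypoxia (0.86 ± 0.27, adjusted p = 0.018), at 12.7 to 27.3 against 4.01 to 21.6 CPM, a contrast of unlisted with listed libraries in which the value was -0.33 (adjusted p = 0.68) with a list term. Cox8b was higher in Cav1-KO hypoxia (0.84 ± 0.28, adjusted p = 0.022), at 2.16 to 8.16 CPM against 2.78 to 3.92 CPM, and Cox8a by 0.81 ± 0.09. Cox7a1 was called in no comparison and stood at 1.28 to 7.26 CPM over all libraries, while its partner Cox7a2 was higher in Cav1-KO hypoxia (0.56 ± 0.06).

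Muscle isoforms varied with the cardiac markers. Across libraries the log2 CPM of Cox6a2 and the summed cardiac markers had a Pearson r of 0.835 and a Spearman rho of 0.909 over the 12 listed libraries (adjusted permutation p = 0.0019 and 4.5e-04) and an r of 0.841 and a rho of 0.827 over the 22 others (both adjusted p = 1.2e-04), from 12 relations tested. Without the 2 libraries farthest from the median, r was 0.687 and 0.835. Cox7a1 gave r of 0.861 and 0.628 (rho 0.902 and 0.595, adjusted p = 0.0017 and 0.0036 for r), or 0.857 and 0.717 without 2 libraries. Cox8b gave r of 0.684 and 0.653 (rho 0.720 and 0.683, adjusted p = 0.024 and 0.0027 for r); without 2 libraries r was 0.434 in the listed ones, where the relation rests on those 2, and 0.864 in the others.

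With 5 brown adipocyte markers, Cox8b had an r of 0.702 (rho 0.8001, adjusted p = 0.0015 for r) in the 22 unlisted libraries and of -0.0285 in the 12 listed ones. Without 2 libraries the first was 0.659. Cox6a2 gave an r of 0.484 (rho 0.652, adjusted p = 0.032 for r and 0.0020 for rho, r 0.693 without 2 libraries) in the unlisted and of 0.243 in the listed libraries. Cox7a1 gave 0.172 and 0.139. Depth, tissue make-up and differences between groups of sex, genotype and oxygen were not removed from these values, and their part in them was not tested. Of the testis forms, Cox6b2 was measurable (5.38 FPKM) and was called in no comparison, while Cox7b2 and Cox8c were too low to test.

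Promoters of a ubiquitous and of a muscle form are shown as examples of the motifs counted below. Sequences are RefSeq's (GRCm38.p6, the build of mm10), 250 bases before the annotated start, on the minus strand for both genes, with the motif searched in capitals. For Cox6a1 (chr5:115348959-115349208) the capitals mark GCGCATG, part of the site of nuclear respiratory factor 1, on both strands with an overlap, and for Cox8b (chr7:140900447-140900696) the E-box CAGCTG, which myogenic factors bind.
Cox6a1: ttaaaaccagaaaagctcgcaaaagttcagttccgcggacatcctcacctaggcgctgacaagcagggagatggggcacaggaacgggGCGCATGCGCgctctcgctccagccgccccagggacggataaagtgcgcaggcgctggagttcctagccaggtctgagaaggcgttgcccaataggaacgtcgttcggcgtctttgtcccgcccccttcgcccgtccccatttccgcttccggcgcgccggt
Cox8b: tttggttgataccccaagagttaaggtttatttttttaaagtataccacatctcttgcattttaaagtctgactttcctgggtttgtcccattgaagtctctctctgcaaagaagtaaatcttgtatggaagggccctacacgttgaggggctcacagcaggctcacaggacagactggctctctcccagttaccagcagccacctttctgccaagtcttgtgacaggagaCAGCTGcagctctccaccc
In windows from 250 bases before to 50 after the start, read on both strands, GCGCATG was found in 19.0% of 79 windows of 74 member genes and in 3.91% of all 32851 windows, and the ETS site CCGGAAG in 22.8% and 8.86%. CAGCTG was found in 7.59% and 16.3% and TATAAA in 10.1% and 13.6%. The 15 member genes with GCGCATG were Atp5g2, Atp5k, Atp5l, Cox5b, Cox6a1, Ndufa11, Ndufa6, Ndufa8, Ndufaf4, Ndufaf5, Ndufb6, Ndufb8, Sdhb, Uqcr11 and Uqcrc1. The 6 member genes with CAGCTG were Atp5b, Cox8b, Ndufa8, Ndufb10, Ndufs5 and Ndufv2, of which only Cox8b is a striated muscle form. A match describes these letters only and was not set against the expression changes.

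Ndufs5 had the largest called genotype difference of the nuclear members against Control, and its processed copy moved the other way. Ndufs5 stood at 26.2, 15.7 and 11.7 CPM in female and 10.3, 17.7 and 16.1 CPM in male Control Nx, at 35.4 and 38.0 CPM in female and 31.3, 37.5 and 34.5 CPM in male Cav1-KO Nx, and at 58.3 and 33.0 CPM in female and 37.4, 37.5 and 39.2 CPM in male Cav1-RC Nx. BC002163 stood at 53.6, 31.5 and 22.4 CPM in female and 18.2, 33.2 and 26.5 CPM in male Control Nx, against 2.45 to 4.47 CPM in Cav1-KO Nx and 2.37 to 8.38 CPM in Cav1-RC Nx. In normoxia neither gene overlapped between Control and the other genotypes.

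In normoxia Cav1-KO differed from Control by 1.11 ± 0.21 for Ndufs5 and by -3.20 ± 0.29 for BC002163 (adjusted p = 1.2e-04). The sum of both was 28.5 to 79.8 CPM in Control Nx (median 44.9), 34.1 to 41.9 CPM in Cav1-KO Nx (median 38.9) and 35.8 to 66.7 CPM in Cav1-RC Nx (median 40.6), with overlapping ranges. The copy exceeded the gene in 10 of 34 libraries, all of them Control, and in every Control Nx library. In Control Hx it did so in 4 of 6: male replicates 1 and 3 had 57.4 and 59.1 CPM of Ndufs5 and 8.89 and 8.61 CPM of BC002163, which lay on the side of the Cav1-KO and Cav1-RC libraries. Cav1 stood at 1167 and 1000.4 CPM in these 2 libraries, within the Control range. Control and Cav1-KO mice came as separate strains, so the Cav1 allele and strain background cannot be told apart in the values of Ndufs5 and BC002163.

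**Figure D5:**
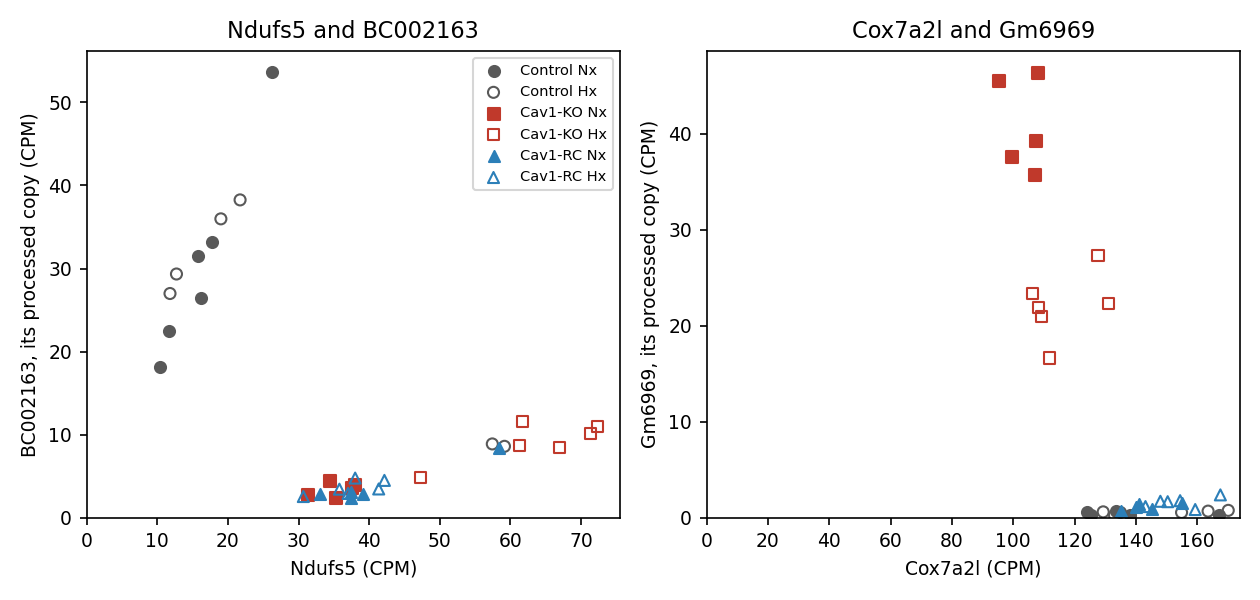
CPM of Ndufs5 (x axis, left panel) and Cox7a2l (x axis, right panel) against the CPM of the processed copies BC002163 and Gm6969 (y axes); each point is a library, coloured by genotype, filled for Nx and open for Hx. In the left panel 10 Control libraries have more counts of the copy than of the gene, and in the right panel Gm6969 exceeds 2.39 CPM only in Cav1-KO libraries.

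Cox7a2l showed the reverse arrangement. It stood at 108 and 107 CPM in female and 99.6, 95.2 and 107 CPM in male Cav1-KO Nx and at 124 to 167 CPM in Control Nx, without overlap. Its copy Gm6969 stood at 35.7 to 46.3 CPM in Cav1-KO Nx, 16.6 to 27.3 CPM in Cav1-KO Hx, and 0 to 2.39 CPM in every Control and Cav1-RC library. In normoxia the difference from Control was -0.42 ± 0.09 for Cox7a2l (adjusted p = 0.013) and 6.45 ± 0.23 for Gm6969 (adjusted p = 3.4e-08). Gene and copies together came to 137 to 154 CPM in Cav1-KO Nx and 125 to 167 CPM in Control Nx, which overlapped. Here too the Cav1 allele and strain background cannot be told apart.

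Copies were common among the members. With at least 90% identity over at least 120 bases, 45 members (34 nuclear and 11 mitochondria-encoded) had 98 annotated pseudogene copies. Where a member and its copy were both called, they moved the same way in 25 of 25 pairs in Cav1-KO hypoxia and 16 of 16 in listed libraries, and in 23 of 24 in Cav1-RC against Cav1-KO in hypoxia, where Cox7a2l and Gm6969 were the exception. In Cav1-KO against Control, the called pairs were Ndufs5 with BC002163 and Cox7a2l with Gm6969, with opposite signs in Nx and in Hx. How reads were shared between these genes and copies was not tested.

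The 7 chromosome 1 copies of mitochondrial genes summed to 277 to 416 CPM in listed libraries (median 349.7) and 55.2 to 194 CPM in the others (median 87.6). In Cav1-KO hypoxia Gm28437 changed by 2.66 ± 0.30 (mt-Co3 by 1.99), Gm28661 by 1.79 ± 0.19 (mt-Co2 by 1.97) and Gm28439, which matches 876 bases of mt-Nd4, by 1.57 ± 0.19 (mt-Nd4 by 1.30). Pairs also parted: in listed libraries Gm10222 was higher by 1.499 ± 0.477 and mt-Nd4l gave 0.29, and in Cav1-RC hypoxia mt-Co3 gave 0.59 and Gm28437 -0.92, neither of them called. These genes cannot be told apart from their mitochondrial originals where the sequence is identical.

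Atp5e (chr2:174461072-174464105, minus strand) had 2 levels with a gap between them. In 16 libraries it lay at 20.7 to 43.3 CPM and in 18 at 60.1 to 101 CPM. All 11 Cav1-RC libraries were in the upper band, 75.1 to 84.7 CPM in Nx and 71.4 to 101 CPM in Hx, and all 5 Cav1-KO Nx libraries in the lower one, at 27.2 to 41.4 CPM. In Cav1-KO Hx, female replicate 3 was at 81.8 CPM and the other 5 at 34.8 to 43.3 CPM. Control libraries were in both bands, 4 low and 2 high in Nx and 2 low and 4 high in Hx, and neither sex nor the list separated them: female Control Nx stood at 72.3, 31.9 and 60.1 CPM, male Control Nx at 28.7, 25.97 and 34.9 CPM, female Control Hx at 27.3, 64.8 and 73.2 CPM, and male Control Hx at 78.0, 20.7 and 71.8 CPM.

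Cav1-RC exceeded Cav1-KO by 1.37 ± 0.11 in normoxia and by 0.88 ± 0.17 in hypoxia for Atp5e. No annotated copy met the limits above, and the neighbouring gene Prelid3b on the same strand ran without such a gap from 25.0 to 47.9 CPM.

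Other genes of the pathway were read from fixed lists, chosen by role. For mitochondrial DNA expression, 11 of 24 genes were higher and 0 lower in listed libraries (23.6% and 22.2% of all genes), led by Ssbp1, the single-stranded DNA binding protein (1.21 ± 0.16), and Fastk (0.86 ± 0.12); in Cav1-KO hypoxia 11 were higher and 1 lower (31.5% and 30.2% of all genes). For the mitochondrial ribosome, 53 of 80 were higher and 1 lower in listed libraries (Mrpl33 0.95 ± 0.11, Mrps17 0.80 ± 0.10, Mrpl3 -0.57 ± 0.11), 52 and 8 of 79 in Cav1-KO hypoxia, and 4 and 44 of 79 in Cav1-RC against Cav1-KO in hypoxia (26.4% and 26.2% of all genes). Both mitochondrial ribosomal RNAs were higher in listed libraries (mt-Rnr1 1.30 ± 0.23, mt-Rnr2 1.20 ± 0.20) and in Cav1-KO hypoxia (2.24 ± 0.18 and 2.13 ± 0.14). They were also higher in Cav1-KO than in Control in hypoxia (1.08 ± 0.25 and 1.08 ± 0.24), where no mitochondria-encoded subunit was called and where all 6 Cav1-KO and 4 of 6 Control libraries are listed.

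Citric acid cycle and pyruvate dehydrogenase genes gave 2 of 17 higher and 7 lower in listed libraries, where 23.6% of all genes were called higher and 22.2% lower, among them the pyruvate dehydrogenase subunit Pdha1 (-1.05 ± 0.13) lower and Dlst (0.34 ± 0.07) and Dld (0.26 ± 0.09) higher. The counts were 5 and 8 in Cav1-KO hypoxia (31.5% and 30.2% of all genes) and 2 and 6 in Cav1-KO against Control in hypoxia (6% and 8.65%). Regulators of mitochondrial biogenesis gave 3 of 13 higher (Esrra 0.41 ± 0.10, Sirt1 0.42 ± 0.15) and 6 lower (Ppara -1.61 ± 0.28, Yy1 -0.50 ± 0.10) in listed libraries, the higher ones near the 23.6% of all genes.

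Other respiratory chain genes gave 12 of 22 higher and 4 lower in listed libraries, beside 23.6% and 22.2% of all genes, such as the electron transfer flavoprotein subunit Etfb (1.17 ± 0.17) and the coenzyme Q gene Coq4 (0.93 ± 0.12) on the one side and Etfdh (-0.81 ± 0.11) and Gpd2 (-0.78 ± 0.15) on the other. Assembly factors outside the members gave 15 of 40 higher (Sdhaf1 1.18 ± 0.17, Ttc19 0.68 ± 0.11) and 8 lower (Coa7 -0.80 ± 0.15, Coa5 -0.72 ± 0.14), the lower ones near the share over all genes. In Control hypoxia, 0 genes of these 6 lists were called by edgeR in either direction, where 0.77% of all genes were called higher and 0.668% lower.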

How the data were processed

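Whole-lung RNA was sequenced in 34 libraries of 12 groups. The authors aligned reads to mm10 with HISAT2 2.0.5 and counted them per gene with featureCounts 1.5.0-p3, and deposited raw counts and FPKM (fragments scaled by depth and gene length) for 54532 genes; 0 columns of sample values were left unused. Counts were tested with edgeR 4.0.16 (TMM scaling, filterByExpr, quasi-likelihood test; R 4.3.3), with Benjamini-Hochberg adjustment over the 17929 to 19870 genes tested and calls at an adjusted p under 0.05. Each of 9 comparisons was the mean of the female and male log2 fold changes over the 4 groups involved. Listed against other libraries was a term in a fit of all 34 libraries. The list term was also added to the comparisons, and list strata are sets of 1 sex and 1 listing that hold both arms. DESeq2 1.42.0, other scalings, no filter, each sex, and leaving out single libraries or those against their sex label were alternatives. Copies were annotated pseudogenes (GENCODE M21) with at least 90% identity over at least 120 bases and 50% of the copy.

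Named genes were the mitochondria-encoded members, tissue isoforms and partners, Sdha to Sdhd, up to 4 called nuclear members per direction with the smallest p, extremes of FPKM, members with a called copy, and up to 2 called genes per direction of other lists, of which 1 is not reported here. Atp5e's bands, its neighbour and the individual copies were chosen after values were seen. Members and lists were chosen with earlier results of these data known. Each library is 1 mouse, and p-values measure the spread between mice of a group.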

Additional observations from a re-analysis of the deposited data

Results flagged for a closer look

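The library whose group the labels call uncertain and possibly female Cav1-KO Nx, which is on the western blot list as such and entered no comparison, had 4.78% of its counts on mitochondria-encoded subunits, above the 1.62 to 3.39% of Control Nx and the 1.53 to 2.09% of Cav1-KO Nx libraries but within the 3.24 to 5.13% of the 12 listed libraries. Its 7 chromosome 1 copies of mitochondrial genes summed to 453.9 CPM, above the 73.8 to 348 CPM of Control Nx, the 64.6 to 87.5 CPM of Cav1-KO Nx and the 277 to 416 CPM of the listed libraries. Both values come from a library outside the comparisons and lie above those of the Control Nx libraries.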

How the results depend on the processing

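Over all results and alternatives, 639 values stayed within the limits set (counts within 1.5 times the reported count, medians within 1 SD between libraries of a group) and 134 moved, medians that changed sign included; the causes were not tested. In all, 3 groups hold listed and unlisted libraries, and a list term carries their difference to the rest. The fewest counts behind a mitochondria-encoded gene were those of mt-Atp8, 2 to 69 per library. Replicate numbers were not used to pair the samples in the reported fits. Of 49 same-number pairs 14 had deviations correlated over 0.1, the highest at 0.69, and the same number was the best match in 24. The replicate block moved the calls only where given below. The number of members called moved as follows, with the reported value in parentheses. Control hypoxia (1) gave 4 with no filter on low counts, 3 by DESeq2, 0 in females alone, 35 in males alone, 0 with the replicate block, 0 within list strata, 3 with 1 fit over all libraries, 3 with the list term and 0 with a log2 change above 1 as well. Cav1-KO hypoxia (90) gave 0 with the list term and 18 with a log2 change above 1 as well. Cav1-RC hypoxia (0) gave 2 with no filter on low counts, 2 in males alone and 1 with the list term. Cav1-KO against Control in Nx (5) gave 12 with no filter on low counts, 10 by DESeq2, 0 in females alone, 2 in males alone, 2 with the replicate block, 3 within list strata and 2 with a log2 change above 1 as well. Cav1-KO against Control in Hx (17) gave 1 in females alone, 2 in males alone, 4 within list strata, 1 with a log2 change above 1 as well and 3 without the 4 libraries against their sex label. Cav1-RC against Cav1-KO in Nx (3) gave 14 with no filter on low counts, 5 by DESeq2, 0 in females alone and 1 with a log2 change above 1 as well. Cav1-RC against Cav1-KO in Hx (81) gave 2 with the list term and 14 with a log2 change above 1 as well. Cav1-RC against Control in Nx (2) gave 0 in females alone, 1 with a log2 change above 1 as well and 0 without the 4 libraries against their sex label. Cav1-RC against Control in Hx (13) gave 20 with no filter on low counts, 37 by DESeq2, 0 in females alone, 66 in males alone, 1 within list strata, 23 with 1 fit over all libraries, 1 with the list term and 1 with a log2 change above 1 as well. The list (75) gave 9 with a log2 change above 1 as well. Leaving out 1 library at a time gave 0 to 5 for Control hypoxia, 0 to 1 for Cav1-RC hypoxia, 1 to 23 for Cav1-KO against Control in Nx, 5 to 61 for Cav1-KO against Control in Hx, 2 to 70 for Cav1-RC against Cav1-KO in Nx and 2 to 23 for Cav1-RC against Control in Hx. The nuclear median moved as follows, with the reported value in parentheses. Control hypoxia (0.18) gave -0.058 in females alone, 0.39 in males alone and -0.038 within list strata. Cav1-KO hypoxia (0.57) gave 0.47 in males alone and 0.056 with the list term. Cav1-KO against Control in Hx (0.11) gave 0.29 in females alone, -0.084 in males alone and -0.033 with the list term. Cav1-RC against Cav1-KO in Nx (0.12) gave -0.034 within list strata. Cav1-RC against Cav1-KO in Hx (-0.38) gave 0.062 with the list term. Cav1-RC against Control in Hx (-0.24) gave -0.061 within list strata and 0.011 with the list term. Leaving out 1 library at a time gave 0.10 to 0.28 for Control hypoxia, 0.52 to 0.59 for Cav1-KO hypoxia, -0.10 to 0.18 for Cav1-RC hypoxia, -0.26 to -0.077 and 0.082 to 0.18 for Cav1-KO against Control in Nx and Hx, -0.034 to 0.26 and -0.43 to -0.30 for Cav1-RC against Cav1-KO in Nx and Hx, and -0.24 to 0.042 and -0.27 to -0.18 for Cav1-RC against Control in Nx and Hx. The mitochondria-encoded median moved as follows, with the reported value in parentheses. Control hypoxia (0.50) gave -0.15 in females alone, 1.28 in males alone, -0.30 within list strata and 0.054 with the list term. Cav1-KO hypoxia (1.35) gave 0.35 with the list term. Cav1-RC hypoxia (-0.31) gave -0.72 in females alone, 0.10 in males alone, 0.15 within list strata and 0.034 with the list term. Cav1-KO against Control in Nx (-0.53) gave -0.23 in males alone. Cav1-KO against Control in Hx (0.38) gave 0.95 in females alone, -0.24 in males alone, 0.069 within list strata and 0.066 with the list term. Cav1-RC against Cav1-KO in Nx (0.50) gave 1.03 in females alone, -0.050 in males alone, 0.13 within list strata and 0.15 with the list term. Cav1-RC against Cav1-KO in Hx (-1.29) gave -0.15 with the list term. Cav1-RC against Control in Hx (-0.94) gave -0.17 in females alone, -1.46 in males alone, 0.25 within list strata and -0.060 with the list term. Leaving out 1 library at a time gave 0.32 to 0.79 for Control hypoxia, 1.31 to 1.40 for Cav1-KO hypoxia, -0.57 to 0.15 for Cav1-RC hypoxia, -0.65 to -0.27 and 0.25 to 0.61 for Cav1-KO against Control in Nx and Hx, 0.13 to 0.76 and -1.40 to -1.10 for Cav1-RC against Cav1-KO in Nx and Hx, and -0.39 to 0.25 and -1.07 to -0.57 for Cav1-RC against Control in Nx and Hx. Sex differences had 0 calls. For Cav1-KO against Control in Hx there were 2 by DESeq2 and 1 without the 4 libraries against their sex label, and for Cav1-RC against Control in Hx there were 1 by DESeq2 and 1 without the 4 libraries against their sex label. Leaving out 1 library gave 0 to 23 for Control hypoxia, 0 to 14 for Cav1-RC hypoxia, 0 to 48 for Cav1-KO against Control in Hx, 0 to 65 for Cav1-RC against Cav1-KO in Nx and 0 to 35 for Cav1-RC against Control in Hx.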

Other observations

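Other markers differed in the contrast between listed and other libraries. Of 6 smooth muscle markers 4 were higher, of 6 endothelial markers 4 were lower, and the nuclear RNA Neat1 was higher by 1.89 on the log2 scale, where 23.6% of all genes were called higher and 22.2% lower. In Cav1-KO hypoxia, all 4 club cell and all 6 ciliated cell markers and 5 of 6 erythroid markers were higher, while 6 of 7 alveolar type 2 and 11 of 18 cardiac markers were lower, where 31.5% of all genes were called higher and 30.2% lower. All Cav1-KO Hx animals are on the western blot list and no Cav1-KO Nx animal is. In Cav1-KO against Control in hypoxia, 5 of 6 erythroid markers were higher and the 18 cardiac markers tested had a median log2 difference of 0.63, where 6% of all genes were called higher and 8.65% lower and 4 of 6 Control and all 6 Cav1-KO libraries are listed.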
